A study of Mus musculus with 6 samples.

Results

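Cells keep free Ca2+ low in the cytosol by pumping it into stores or out of the cell. The SERCA pumps of the *Atp2a* genes move Ca2+ from the cytosol into the endoplasmic reticulum (ER), the PMCA pumps of the *Atp2b* genes expel it across the plasma membrane, and the SPCA pumps of the *Atp2c* genes load Ca2+ and manganese into the Golgi. All of them are P-type ATPases, which pass through a phosphorylated state in each pumping cycle. *Slc8a1* encodes the sodium-calcium exchanger NCX1, which uses the sodium gradient in place of ATP and is best known from the heart. The genes described here are these 10, chosen by name, of which 9 are listed among the 19078 genes of the authors' deposited table. *Atp2b2*, which encodes PMCA2, was not found in it and was not analysed here.

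RNAseq was performed on 3 libraries of *Ms4a15* OE and 3 of control cells, all immortalized mouse fibroblasts (MF). Per the study's methods, the parental embryonic fibroblasts carry a conditional *Gpx4* allele, Cre-ERt2 and a CRISPR activation system. *Ms4a15* OE cells are a pool that also carries a guide to *Ms4a15*, whereas control cells received empty lentivirus and are labelled wild type. The methods describe G418 selection of cell pools without setting control cells apart. No drug treatment is given for either group in the labels. The guide is shown because it is what distinguishes *Ms4a15* OE from control, with its PAM in capitals:

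*Ms4a15* OE guide: aaagactgaagcaagggactGGG

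Its 20 bases lie at chr19:10993361-10993380 of GRCm38.p6 on the strand of the gene, from 111 to 130 bases upstream of the RefSeq start. No member lies on that chromosome.

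For each gene a single measured level was used, the authors' mean of normalized counts over all 6 libraries. The groups are pooled in that mean, so it holds neither a difference between *Ms4a15* OE and control nor a spread between replicates, and no test between groups was made. *Ms4a15* itself had a mean of 637.5 normalized counts over the 6 libraries, which does not check the labels of single libraries. The size factors of the libraries, worked out from 1267 genes with a single read, ran from 0.887 to 1.14. The means of all genes sum to 40991755 normalized counts. A mean equal to 3 counts in each library, 3.01 normalized counts, was taken as a floor, and 75.8% of all listed genes were above it. Of the 9 listed members, 6 were above the floor and 3 below. Errors and intervals given here cover counting only.

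The labelled cell type was checked against marker genes. Of 10 fibroblast markers, 9 were listed, all above the floor, led per transcript length by *Vim*, *S100a4* and *Col1a2*. Among 8 epithelial markers 2 were above the floor, *Krt14* with 170 and *Krt8* with 10.9 normalized counts, and *Epcam*, *Cdh1* and *Krt18* were below it. Of 10 striated muscle markers, 6 of them listed, 3 were above it. One of these, *Tnnt2*, a cardiac troponin, had a mean of 5787 normalized counts, whereas *Myh6*, *Myh7* and *Tnnt3* were under the floor. Among 8 neuron markers, 5 of them listed, 4 exceeded the floor, *Tubb3* with 2463 normalized counts. Of 8 blood cell markers, 6 of them listed, 5 exceeded it, *Lyz2* with 534 and *Csf1r* with 13.2 normalized counts. The part of cells of another type in the levels below was not tested.

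Paralogs within a family were compared by their coding sequences. The aligned bases of SERCA genes were between 69.9% and 74.9% identical in 3 pairs. For the PMCA genes identity ran from 71.5% to 78.0% in 6 pairs, and *Atp2c1* and *Atp2c2* shared 65.0%. No window of 75 bases in the annotated transcripts of one member occurred in those of another member, so reads of that length that match exactly are not shared between paralogs.

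SERCA transcripts were almost all from *Atp2a2*. *Atp2a2* encodes SERCA2, the widely expressed SERCA that supplies the ER in most cells. It lies on the reverse strand of chr5:122453513-122502225 (GRCm38) and had a mean of 24439 normalized counts, the 214th highest of the table and above 98.9% of genes. That mean stands for between 129992 and 166681 reads over the 6 libraries, and its counting error is at most 0.277%. *Atp2a3*, the gene of SERCA3, a pump best known from blood and epithelial cells, lies on the forward strand of chr11:72961169-72993044. Its mean of 273 normalized counts lay close to the median of all genes, 237, with a counting error of at most 2.62%. *Atp2a1* encodes SERCA1 of fast-twitch muscle and lies at chr7:126445858-126463108, on the reverse strand. It had a mean of 1.98 normalized counts, below the floor.

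Levels of different genes were compared per length, as the mean over the length of the longest annotated transcript, scaled so that all 16169 genes with a length sum to 1000000. On that scale, in parts per 1000000 (ppm), *Atp2a2* was at 286 ppm and *Atp2a3* at 3.94. *Atp2a2* thus carried 98.6% of the summed SERCA level and *Atp2a3* 1.36%. *Atp2a2* has 2 protein-coding transcripts in the annotation, and the gene's mean does not separate the widely expressed from the cardiac splice form.

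PMCA transcripts came mostly from *Atp2b1*. *Atp2b1*, which encodes the widely expressed PMCA1, lies on the forward strand of chr10:98914406-99026143. It had a mean of 8402 normalized counts with a counting error of at most 0.473%, ranking 1021st. *Atp2b4*, the gene of PMCA4, another pump found in many tissues, lies on the reverse strand of chr1:133699457-133801041. Its mean was 265 normalized counts, with a counting error of at most 2.67%. Per length, *Atp2b1* was at 78.3 ppm and *Atp2b4* at 1.499, so *Atp2b1* made up 98.1% of the PMCA level and *Atp2b4* 1.88%. The share of *Atp2b4* was 3.09% with coding length and 3.77% with the union of exons. *Atp2b3*, which encodes the neuronal pump PMCA3 and lies at chrX:73503086-73571005 on the forward strand, was below the floor at 0.477 normalized counts.

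The Golgi pumps followed the same order of a major and a minor gene. *Atp2c1* encodes SPCA1, found in most cells, and lies on the reverse strand of chr9:105403539-105527319. Its mean was 3902 normalized counts, with a counting error of at most 0.694%. *Atp2c2* encodes SPCA2, a pump of secretory epithelia such as the mammary gland, and lies on the forward strand of chr8:119700009-119757717. It had a mean of 57.1 normalized counts, with a counting error of at most 5.74%. *Atp2c1* was at 45.9 ppm and *Atp2c2* at 1.18, which are 97.5% and 2.50% of the SPCA level. The share of *Atp2c2* was 1.45% with coding length and 4.21% with the union of exons.

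**Figure D1:**
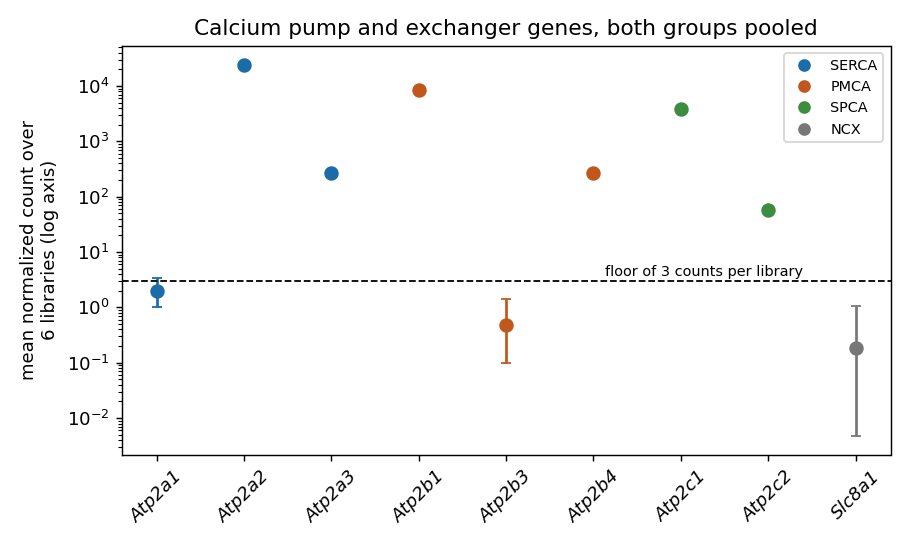
Mean normalized count over the 6 libraries (log axis) of the 9 listed calcium pump and exchanger genes, coloured by family, with both groups pooled. Bars on the 3 genes under the dashed floor of 3.01 are 95% exact Poisson intervals of their reads, and the 6 other genes lie between 57.1 and 24439.

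Reads could be counted for the 3 genes under the floor, because with so few reads only 1 set of whole reads per library gives the deposited mean. *Atp2a1* had 12 reads in all (95% exact Poisson interval 6.20 to 20.96), found in 6 of 6 libraries, with a lowest library of 1, a median of 2 and a highest of 4 reads. *Atp2b3* had 3 reads (0.619 to 8.77) in 2 of the 6 libraries, the higher with 2. *Slc8a1*, on the reverse strand of chr17:81373105-81738377, had 1 read (0.0253 to 5.57) in 1 library. None of these genes was detected above the floor at this depth, and the libraries concerned were not assigned to a group.

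Listed genes share exonic bases with 2 of the members. *Rabep2*, with a mean of 760 normalized counts, shares 763 exonic bases with *Atp2a1* on the opposite strand. *Aste1*, with 477, shares 1837 with *Atp2c1*, also on the opposite strand. Among annotated genes that were not found in the table, AC122399.1 shares 296 exonic bases with *Slc8a1* and Gm43361 shares 83 with *Atp2a2*, both on the opposite strand. Overlaps of 8 bases or fewer touched *Slc8a1* and *Atp2b4*. The labels name a strand-specific kit, whereas the study's methods name a protocol without mention of strand, and the strand setting of the counting is not given in the sources used here. How reads in the shared bases were assigned, or whether they were left out, is therefore not known. Of the windows of 75 bases in a member's transcripts, 15.8% for *Atp2a1*, 17.0% for *Atp2c1* and 1.18% for *Slc8a1* matched these opposite-strand genes. For *Atp2a2*, 2.42% of windows matched Gm43361 on the opposite strand or Gm30970. Other genes matched 0.474% of windows for *Atp2b1* and 0.0485% for *Atp2b4*. The positions of single reads are not available, so the part of a member's reads that fell there was not worked out.

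Across families the order per length was *Atp2a2*, *Atp2b1*, *Atp2c1*, *Atp2a3*, *Atp2b4* and *Atp2c2*. *Atp2a2* was 3.66 times *Atp2b1*, *Atp2b1* 1.70 times *Atp2c1* and *Atp2c1* 11.6 times *Atp2a3*. The steps from *Atp2a3* to *Atp2b4* and from *Atp2b4* to *Atp2c2* were 2.63 and 1.27 times. Without a spread between libraries, whether such neighbours differ beyond replicate error was not tested, and the sizes of these steps depend on the length used. With coding length, *Atp2a3* was 1.20 times *Atp2b4* and *Atp2b4* 3.63 times *Atp2c2*. With the union of exons, *Atp2a2* was 7.28 times *Atp2b1*. Summed over their listed genes, SERCA reached 290 ppm, PMCA 79.8 and SPCA 47.1. The SERCA level was thus 3.64 times that of PMCA and 6.16 times that of SPCA. With the union of all exons as length these ratios were 7.09 and 9.69. The median mean of the 9 listed members was 265 normalized counts, beside 237 for all listed genes.

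**Figure D2:**
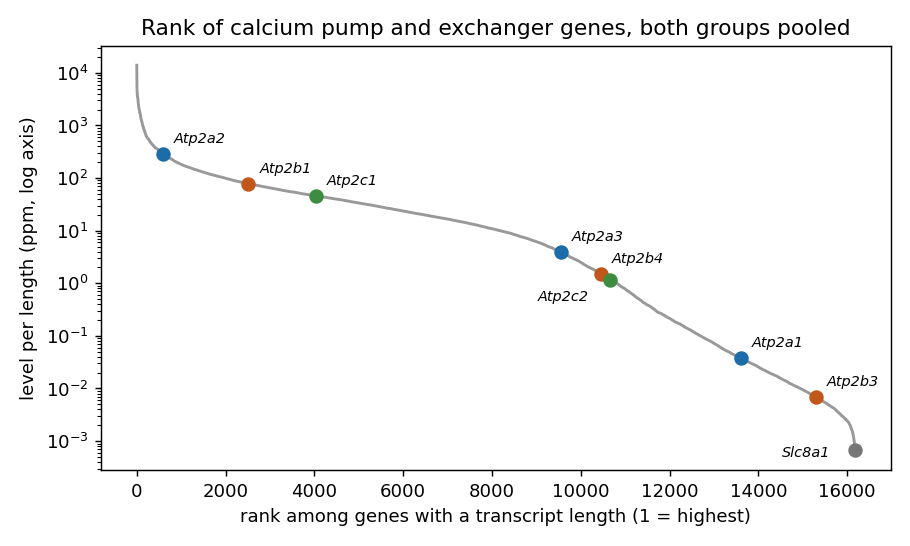
Level per transcript length (ppm, log axis) against rank for all 16169 genes with a length (grey line), with the 9 listed calcium pump and exchanger genes marked and both groups pooled. *Atp2a2*, *Atp2b1* and *Atp2c1* rank 598th, 2516th and 4042nd, the minor paralogs *Atp2a3*, *Atp2b4* and *Atp2c2* between 9547th and 10658th, and *Atp2a1*, *Atp2b3* and *Slc8a1* farthest down.

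Genes that work beside the pumps were placed on the same scale. The IP3 receptors and ryanodine receptors release Ca2+ from the ER, and STIM and ORAI proteins refill it by store-operated entry. Of these 11 genes 9 were above the floor, led by *Itpr3* at 44.4 ppm, *Orai2* at 37.7 and *Itpr1* at 27.3. The ryanodine receptor genes *Ryr2* and *Ryr3* were under it. The SERCA level was 3.59 times the summed level of the 3 IP3 receptor genes, 80.8 ppm, and 5.48 times with coding length.

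Small membrane proteins tune SERCA in muscle, among them phospholamban and sarcolipin. Of the 9 regulator genes looked for, *Pln*, *Sln*, *Mrln*, *Strit1*, *Arln* and *Erln* were not found under these symbols, and *Hax1*, *S100a1* and *Tmx1* were at 209, 137 and 95.2 ppm. Inside the ER, Ca2+ is held by chaperones and other binding proteins, and all 14 genes of that list were above the floor. *Calr*, which encodes calreticulin, was at 1654 ppm, *Hsp90b1* at 1329 and *Hspa5* at 1314. *Calr* was thus 5.78 times and *Hspa5* 4.59 times *Atp2a2*.

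PMCA pumps are assembled with basigin or neuroplastin and are activated by calmodulin. All 5 genes of these partners were above the floor, between 130 and 1316 ppm, so that each exceeded *Atp2b1*. *Calm2* was the highest at 1316, followed by *Bsg*, the basigin gene, at 701. Of 9 other exchanger genes 8 were listed and 2 were above the floor, and *Slc8b1* was not found under its symbol. *Tmem165*, which encodes a cation exchanger of the Golgi, was at 104 ppm, 2.20 times the SPCA level. *Slc8a3*, an NCX gene like *Slc8a1*, was close to the floor with 3.25 normalized counts, while *Slc8a2* and the 5 *Slc24a* genes of potassium-dependent exchangers were under it.

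**Figure D3:**
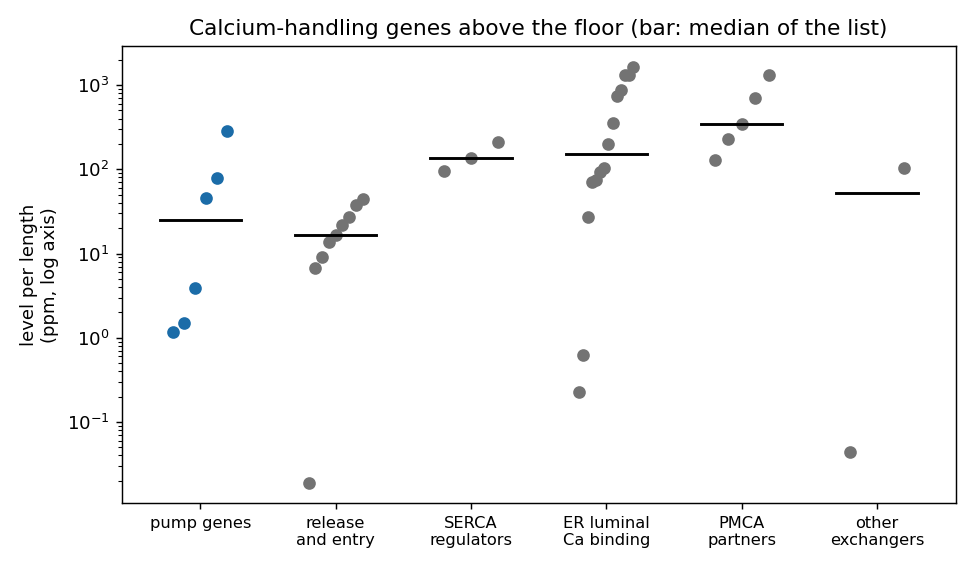
Level per transcript length (ppm, log axis) of calcium-handling genes above the floor, 1 point per gene with both groups pooled, and the median of each list as a bar. The 6 pump genes had a median of 24.9 ppm, the 9 genes of release and entry 16.7 and the 14 luminal binding genes 152.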

How the data were processed

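Poly(A)-selected RNA of 3 *Ms4a15* OE and 3 control libraries was sequenced. Per the study's methods, reads were aligned to mm10 with STAR, counted per gene with HTSeq-count and compared with DESeq2, whereas the tools in the submitters' processing notes are TopHat, Cufflinks, Cuffdiff, HTSeq and DESeq2. The signal used is a column the authors deposited, each gene's mean of size-factor-normalized counts across the 6 libraries. The table's other 5 columns hold the authors' own comparison of the groups (log2 fold change, standard error, p, adjusted p and direction). They were not used, and no test planned between the groups was run.

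A gene with 1 read in a single library has a mean of 1 over 6 times that library's size factor, which gave the 6 size factors. Reads over all libraries were bounded by the lowest and highest of them. For members under the floor of 3 counts per library, whole reads were solved for, a step tested on simulated data. Transcript lengths, positions and overlaps came from GENCODE M21 (GRCm38, the same build as mm10), in which 16169 genes were matched by symbol, 1493 of them by an older one, holding 97.3% of the summed means. A comparison of short coding stretches between pumps is not reported here. The guide came from the study's oligonucleotide list and was located in RefSeq promoters. Intervals are 95% exact Poisson intervals of reads. Shares within a family carry no interval, since a level scaled by length is not a count of reads. The alternatives were coding length, the union of exons, no length, and a restriction to genes averaging 10 or more normalized counts. Members and gene lists were chosen with earlier results of these data known. All 10 members were to be named, and of each other list the 3 highest per length and those under the floor. Python 3.11.15, numpy 2.4.6, pandas 2.3.3, scipy 1.17.1, biopython 1.88 and matplotlib 3.10.9 were used.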

Additional observations from a re-analysis of the deposited data

How the results depend on the processing

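The major gene of each family stayed the major one under every length tried. *Atp2a2* made up 98.9% of the SERCA level with coding length, 98.7% with the union of exons and 98.9% without a length. *Atp2b1* made up 96.9%, 96.2% and 96.9% of the PMCA level in the same order, and *Atp2c1* 98.5%, 95.8% and 98.6% of the SPCA level. The length sets these shifts by construction. Single levels per length moved by more than counting error for 6 of 9 listed genes with coding length and for 6 of 9 with the union of exons, with those genes at factors from 0.476 to 1.36 and from 0.640 to 1.37. Keeping only genes with a mean of at least 10 moved 0 of 6. This filter scales every kept level by 1 shared factor, here 1.0005, so it could not change their order or ratios. *Atp2b4* exceeded *Atp2c2* under all 3 lengths, by 2.03 against 0.560 ppm with coding length and by 1.962 against 1.61 with the union of exons. The 9 listed genes kept 1 order in all 4 settings, which share the same reads and differ only in the length. Without a length, *Atp2a3* and *Atp2b4* had 273 and 265 normalized counts, with counting errors of at most 2.62% and 2.67%. *Atp2b3* and *Slc8a1* rest on 3 reads and 1 read, with overlapping intervals. Whether the genes of such close pairs differ was not tested. Another normalization, a filter, a replicate block and leaving out each replicate were planned for a comparison of the groups and not run. No paired analysis was possible because the level used pools all 6 libraries.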
